A study of Caenorhabditis elegans with 60 samples.

Results

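The regions described here are windows of 500 bp that carried strong H3K9me3 in wild-type embryos of Caenorhabditis elegans, kept a level above the input in nrde-3, and stood at a low level in lin-61 and in both double mutants. They were chosen from measured levels. The level of a genotype is the mean log2 of its H3K9me3 libraries minus the mean log2 of the 14 input libraries, with a pseudocount of 8 counts and each library scaled to its own median window, so that a level of 1 is 2 times the input. A member had a level of at least 2 in N2, at least 1 in nrde-3, and below 1 in lin-61 and in each of the double mutants described next, and the mean inputs of the 5 strains lay within 1.5 times of each other. Of 200551 nuclear windows, 184123 were evenly covered, 15033 of these reached a level of 2 in N2, and 5932 were members, which is 39.5% of the strong windows and 3.22% of all evenly covered ones. "Lost" has no other meaning here than a level below 1.

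The strains were N2 (Bristol), nrde-3(tm1116) X, lin-61(tm2649) I, the double mutant met-2(n4256) III with nrde-3(tm1116) X, and the double mutant met-2(n4256) III with lin-61(tm2649) I. There was no met-2 single mutant among them. Whole early embryos before the bean stage were collected from populations grown for 60 to 65 h after synchronization as L1 larvae. Each genotype had 3 chromatin preparations with 1 input and 1 H3K9me3 library each, 30 libraries in all, and the table holds raw counts per window on the ce10 genome. Because whole embryos were used, fewer cells with the mark and less mark per cell cannot be told apart.

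Trimethylation of lysine 9 on histone H3 marks silent chromatin, and in this animal it lies mainly on the repeat-rich arms of the chromosomes. MET-2, the relative of mammalian SETDB1, places the lower methylation states on this residue, and a second enzyme, SET-25, adds the third methyl group. NRDE-3 is an Argonaute that takes small RNAs into the nucleus of somatic cells and directs silencing there, and LIN-61 is a protein with MBT domains that binds methylated histone H3. The title of the series names the Argonaute and the MBT-domain protein as separate routes by which the enzyme is brought to chromatin.

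Several labels have to be read with care. The libraries labelled N2 input 1 and N2 H3K9me3 1 were left out by the rule, and over the members their median levels were 1.81 and 0.055. With all 30 libraries taken as labelled, no window met the rule. A short gap on III, the chromosome of the met-2 allele, was used to compare labels. There, depth relative to the median library was 0.0604 to 0.0648 in the inputs labelled nrde-3, while the inputs labelled met-2 nrde-3 had 1.00 to 1.04; the H3K9me3 libraries of these labels stood at 1.00 to 1.31 and 0.0829 to 0.0967. The inputs of these strains thus go against their labels, and the rule takes the mean input over all genotypes. The titles name H3K9me3, but the antibody in the protocol is one against LEM-2. The protocols also disagree on whether 2 or 3 replicates were taken. Titles place both strains with the lin-61 allele in library series 2080 and the other 3 strains in series 2236, so a difference across these series cannot be told apart from one of the lin-61 background. Nuclear counts ranged from 22154782 to 65664328 per library, and those of the H3K9me3 libraries of series 2080 reached at most 43658274.

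Over the members, H3K9me3 was highest in N2, intermediate in nrde-3, low in lin-61 and lower still in the double mutants. The median level over the 5932 windows was 2.46 in N2 replicate 2 and 2.72 in replicate 3. It was 1.52, 2.33 and 1.05 in nrde-3 replicates 1 to 3, which spread widely. The lin-61 libraries stood at 0.75, 0.77 and 0.52. The met-2 nrde-3 libraries stood at 0.10, 0.06 and 0.12, and those of lin-61 met-2 at 0.34, 0.30 and 0.36. No library of one genotype overlapped those of another in this median, an order that the rule in part fixed. Averaged over preparations, N2 had a median of 2.59 ± 0.188 (SD, n = 2), nrde-3 had 1.63 ± 0.649, lin-61 had 0.681 ± 0.139, met-2 nrde-3 had 0.092 ± 0.026, and the value was 0.334 ± 0.030 for lin-61 met-2 (SD, n = 3 each). As fold over input, the median of the genotype levels was 5.99 in N2. It was 3.08 for nrde-3 and 1.61 for lin-61, against 1.251 for lin-61 met-2 and 1.05 for met-2 nrde-3. These values rest on a median of 119 to 812 counts per member window in each H3K9me3 library.

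**Figure D1:**
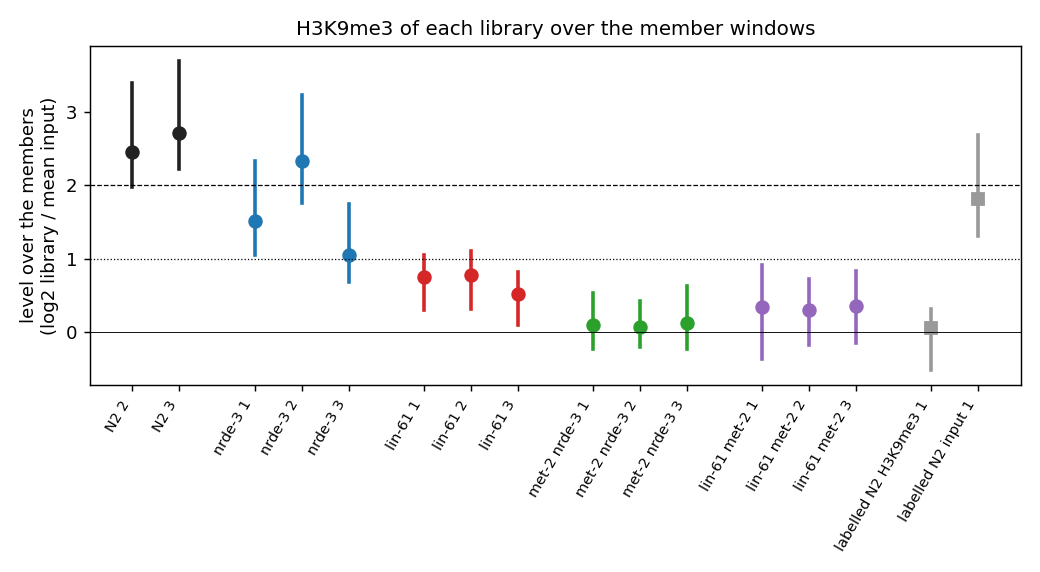
Level of each H3K9me3 library over the 5932 member windows, as log2 of the library over the mean input; points are medians and bars run from the 10th to the 90th percentile of the windows. Dotted and dashed lines mark levels of 1 and 2, and the grey squares are the 2 libraries of N2 replicate 1, which were not used; the library labelled N2 input 1 sits at 1.81.

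Most members were still above the input in lin-61, fewer in lin-61 met-2 and few in met-2 nrde-3. This comparison was added after the data were seen and uses the same libraries as the rule, which kept only windows below 1 in these genotypes, so its counts are a description. edgeR, fitted on all evenly covered windows with the common input, called 5021 of 5932 members (84.6%) above the input in lin-61 and 5 below it, where 31.2% and 25.7% of all windows were called. In met-2 nrde-3 it called 792 members (13.4%) above the input and 11 below, where 18.5% and 5.04% of all windows were. In lin-61 met-2 it called 2615 (44.1%) above and 148 below, where 29.1% and 21.7% of all windows were. All windows include those that the limit of 1 removed from the members. The 4835 windows held to the same limit in both double mutants but at 1 or more in lin-61 gave 13.3% above the input in met-2 nrde-3 and 64.0% in the lin-61 double mutant. With the inputs labelled with the own genotype, which for met-2 nrde-3 go against that label, 387 members were above the input there (6.52%, against 14.8% of all windows). For lin-61 met-2 the same change gave 1502 (25.3%, against 21.6%). Without met-2 nrde-3 replicate 3, 432 were above the input in that strain (7.28%, against 14.8%).

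The level in lin-61 was also where the rule divided the strong windows most finely. Of the 14552 windows at 2 or more in N2 and 1 or more in nrde-3, the median level in lin-61 was 1.03, so the threshold of 1 lay near the middle of a distribution with a single peak. In lin-61, 47.1% of these windows were below 1 and 16.5% lay between 0.9 and 1.1. In met-2 nrde-3 the median was 0.19, 82.3% were below 1 and 3.38% lay near the threshold. In lin-61 met-2 the median was 0.56, 77.4% were below 1 and 9.06% lay near it. Of the members, 1008 (16.99%) were within 0.1 under the limit on lin-61, while 908 windows that met every other condition were within 0.1 above it. The same band held 561 members and 480 other windows at the limit on N2, 298 and 167 at that on nrde-3, 70 and 51 at that on met-2 nrde-3, and 160 and 118 at that on lin-61 met-2.

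**Figure D2:**
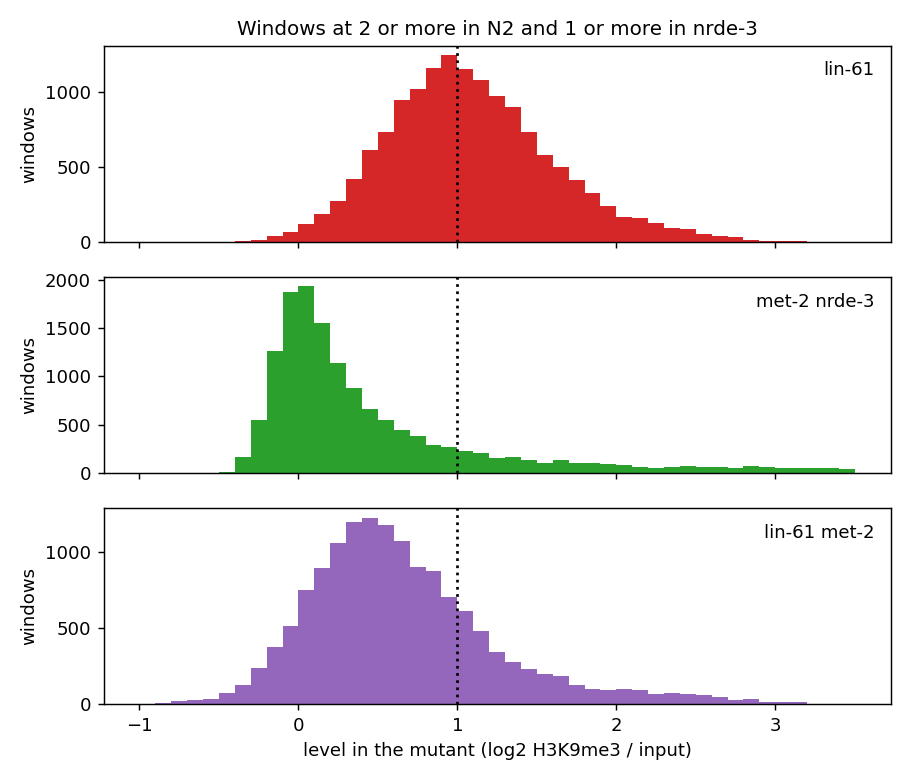
Numbers of windows by their level in lin-61 and in each double mutant, for the 14552 windows at 2 or more in N2 and 1 or more in nrde-3; bars are 0.1 wide and the dotted line is the limit of 1. The limit passes near the peak in lin-61 (47.1% below it) and through the upper tail in met-2 nrde-3 (82.3% below it).

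Windows that met all conditions except the one on lin-61 formed the most similar class, with 4835 windows at 1 or more in lin-61 and below 1 in both double mutants. Their median level was 3.26 in N2, 2.16 in nrde-3, 1.30 in lin-61, with 0.09 for met-2 nrde-3 and 0.52 for the lin-61 double mutant. The members were weaker windows in N2, with a median of 2.58. Taken as a share of the N2 fold over input, the median left in lin-61 was 24.8% in the members and 26.4% in this class, and 22.0% in the 2084 windows that kept a level of 1 or more in both double mutants and in nrde-3. In nrde-3 the same shares were 50.3%, 46.3% and 48.3%. These are descriptions, since the classes were cut from the same levels.

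The share of strong windows that were members changed with the level in N2. Between 2 and 2.5 in N2, 2605 of 4534 windows (57.5%) were members, and at 4 or more, 194 of 2722 (7.13%). Over all evenly covered windows, the median level in lin-61 rose with that in N2, from 0.77 for N2 levels of 2 to 2.5 to 1.01 for 3 to 3.5 and 1.75 for 4.5 to 5, and so crossed the limit at an N2 level near 3. In met-2 nrde-3 the same steps gave 0.05, 0.20 and 0.62, all below the limit. At a matched N2 level the members were still lower in lin-61 than the class above it, as the rule requires. Between 3 and 3.5 in N2, the median difference from N2 was -2.499 in the 1018 members and -1.98 in the 892 windows of that class, while in nrde-3 it was -1.07 and -1.09 and in met-2 nrde-3 -3.09 and -3.14.

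**Figure D3:**
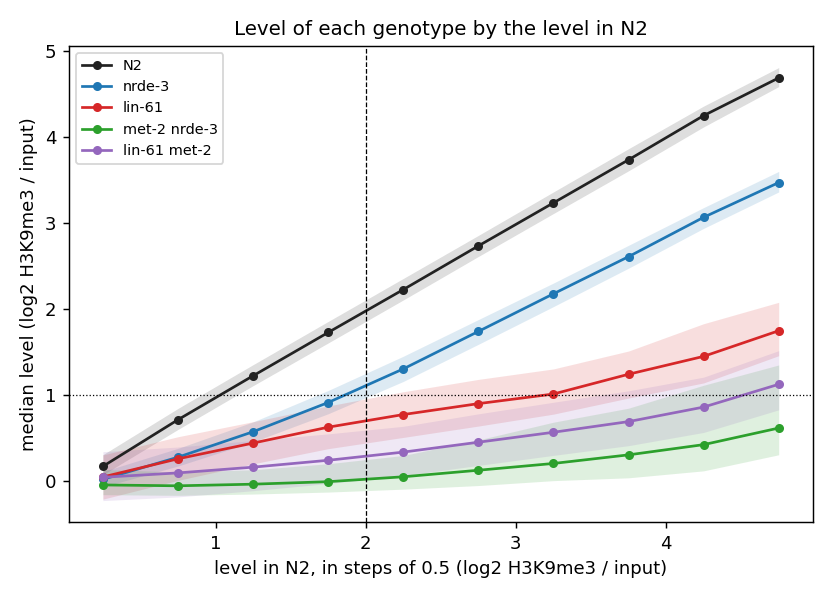
Median level of each genotype over all evenly covered windows, grouped by their level in N2 in steps of 0.5; shading spans the quartiles of the windows. The lin-61 line crosses the limit of 1 (dotted) at 1.01 for N2 levels of 3 to 3.5, while nrde-3 stands at 2.18 in that step and met-2 nrde-3 stays at 0.62 or less up to an N2 level of 5.

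Comparisons among the 3 genotypes in which the mark was low asked which of them retained more. The rule limits each to below 1 but does not fix their order. It used the same libraries. Its limit lay near the median of the 14552 windows in lin-61 but well above it in the double mutants. The sizes of the differences and the shares of members called are therefore shaped by the choice of members. met-2 nrde-3 was the lowest of the 3 in 4253 members (71.7%), lin-61 met-2 in 1373 (23.1%) and lin-61 in 306 (5.16%). lin-61 was the highest in 4652 (78.4%). The median difference over the members was -0.55 for met-2 nrde-3 minus lin-61 (quartiles -0.79 and -0.29), against 0.03 over all evenly covered windows. It was -0.32 for lin-61 met-2 minus lin-61 (-0.57 and -0.08), against -0.01, and 0.21 for lin-61 met-2 minus met-2 nrde-3 (-0.01 and 0.40), against -0.01. The limits of the rule also bound these differences. In the class at 1 or more in lin-61 the same medians, in this order, were -1.23, -0.865 and 0.38.

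The comparison of lin-61 met-2 with lin-61 adds the met-2 mutation within 1 library series. edgeR's quasi-likelihood test on the H3K9me3 libraries, with Benjamini-Hochberg adjustment over 184123 windows, called 743 members lower in the double mutant (12.5%, against 9.40% of all windows) and 3 higher (0.0506%, against 10.8%). Every preparation of the double mutant lay below every one of lin-61 in 2254 members (38.0%, against 16.6% of all windows), and above in 146 (2.46%, against 15.8%). The spread was estimated over all 5 genotypes, and the count of 743 moved with the libraries fitted. It was 1622 without nrde-3 replicate 2 (27.3%, against 11.6% of all windows) and 1148 without nrde-3 replicate 3 (19.4%, against 10.3%). Without lin-61 replicate 1 or 2 it was 323 and 316 (5.45% and 5.33%, against 5.40% and 5.75%). The first share was barely above that of all windows and the second below it. When only the 6 libraries of these strains were fitted it was 1337 (22.5%, against 7.72%), and with N2 H3K9me3 1 as labelled it was 9 (0.152%, against 2.15%). Whether the members' share exceeded that of all windows thus depended on the libraries fitted.

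Between met-2 nrde-3 and lin-61, which crosses the library series, edgeR called 1947 members lower in the double mutant (32.8%, against 15.7% of all windows) and 16 higher (0.270%, against 18.4%). The preparations did not overlap in 4148 members with met-2 nrde-3 lower (69.9%, against 25.4%) and in 131 with it higher (2.21%, against 26.0%). The count of 1947 was 3289 without nrde-3 replicate 2 (55.4%, against 17.7% of all windows). It was 1032, 1001 and 1001 without met-2 nrde-3 replicate 1, 2 or 3 (16.9% to 17.4%, against 11.1% to 12.0%), and 1030 and 1002 without lin-61 replicate 1 or 2 (17.4% and 16.9%, against 11.7% and 12.3%). The fit of these groups alone gave 4078 (68.7%, against 21.9%), and 18 were called with N2 H3K9me3 1 as labelled (0.303%, against 6.92%).

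Between the double mutants, the number of members called depended on the libraries and the fit. Of 5932, 44 were called lower in lin-61 met-2 than in met-2 nrde-3 (0.742%, against 8.44% of all windows) and 78 higher (1.31%, against 3.88%), although lin-61 met-2 was above met-2 nrde-3 in every preparation in 1775 (29.9%, against 13.9%) and below in 280 (4.72%, against 15.8%). The count of 78 was 551 without nrde-3 replicate 2 (9.29%, against 5.81% of all windows), 238 without nrde-3 replicate 3 (4.01%, against 4.38%) and 429 in the fit of these groups alone (7.23%, against 3.23%). limma on libraries each divided by their SD called 1553 (26.2%, against 9.58%). Without nrde-3 replicate 1 the count of 78 moved to 50 (0.843%, against 3.08%). It moved to 9, 8 and 4 without met-2 nrde-3 replicates 1 to 3 (0.0674% to 0.152%, against 1.54% to 1.69%). Without lin-61 replicates 1 to 3 it was 46, 47 and 46 (0.775% to 0.792%, against 3.35% to 3.63%). Without lin-61 met-2 replicate 1 or 3 it was 50 and 42 (0.843% and 0.708%, against 3.95% and 4.17%). The count of 44 was 116 and 77 without nrde-3 replicate 2 or 3 (1.96% and 1.30%, against 9.41% and 8.61% of all windows). It was 75 in the fit of these groups alone (1.26%, against 5.96%). Without met-2 nrde-3 replicates 1 to 3 it was 22, 22 and 18 (0.303% to 0.371%, against 4.88% to 6.26%), and without lin-61 met-2 replicate 1 24 (0.405%, against 9.04%). The 99th percentile of the H3K9me3 levels was 1.48 to 1.90 in series 2080, against 2.35 to 4.39 in series 2236, while the SD was 0.491 to 0.659 in the first and 0.492 to 1.07 in the second, and the ranges of the SD overlapped. The part of the lower 99th percentile in the results across the series was not tested.

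The contrasts that the rule itself used are given as a description and nothing is read from them. All 5932 members were called lower than N2 in each strain: lin-61 (24.1% of all windows), met-2 nrde-3 (25.4%) and the lin-61 double mutant (26.0%). Against nrde-3, 5846 members were called lower in met-2 nrde-3 (98.6%, against 15.5%) and 4852 in lin-61 (81.8%, against 12.9%). With N2 H3K9me3 1 as labelled, 51 were called lower in lin-61 than in N2 (0.86%, against 0.291%) and 13 lower than in nrde-3 (0.219%, against 0.285%).

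The rule also used the levels of N2 and nrde-3, so their contrast is likewise a description. In nrde-3 every member was below its N2 level, with a median difference of -0.99 (quartiles -1.11 and -0.87). The classes lost only in the double mutants and kept in both had -1.11 and -1.05, and all evenly covered windows -0.06. edgeR called 2358 of them lower (39.8%, against 8.22% of all windows). The levels of N2 and nrde-3 correlated at r = 0.942 across the 5932 windows, which share the input. The count of 2358 and the share of all windows called moved widely with the libraries fitted. The count was 36, 5925 and 98 without nrde-3 replicates 1 to 3 (0.607%, 99.9% and 1.65%, against 0.352%, 20.3% and 0.515%). Without met-2 nrde-3 replicates 1 to 3 it was 1323, 1412 and 1339 (22.3% to 23.8%, against 5.58% to 5.69%). It was 1495 without lin-61 replicate 1 (25.2%, against 6.16%), and 0 with N2 H3K9me3 1 as labelled (0%, against 0%). Without N2 replicate 2 or 3, which leaves 1 N2 library, the median log2 change over the members was -1.04 and -0.77. nrde-3 replicate 3 was below a level of 1 in 45.5% of the members, replicate 1 in 6.68% and replicate 2 in none.

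Members lay almost only on chromosome arms, taken as the 33.3% of each chromosome nearest to either end. Arms held 99.6% of the members, 99.8% of the class lost only in the double mutants, 95.5% of the class kept in both, and 65.5% of all evenly covered windows. The median distance to the nearest chromosome end was 1.83 Mb, against 1.90 Mb in the class lost only in the double mutants and 4.30 Mb over all evenly covered windows. Within 50 kb of an end lay 59 members (0.995%), against 0.455% of the class lost only in the double mutants and 0.515% of all evenly covered windows.

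Within the arms the members were concentrated on the arm of each autosome that also held more of the strong N2 windows. The right arm of V held 1516 members (25.6%), the right arm of I 1135 (19.1%), the left arm of II 999 (16.8%) and the left arm of III 754 (12.7%). Chromosome X held 3.91% of the members, against 18.2% of the evenly covered windows. As a share of the strong windows of an arm, members were most frequent on the right arm of I (52.5% of 2163) and the left arm of II (45.3% of 2205). On the right arm of V they were 35.1% of 4319, where the class lost only in the double mutants was slightly larger, with 1595 windows. On the left arm of III that class was larger, with 953 windows. The median N2 level of the strong windows was 2.80 on the right arm of I, 3.04 on the left arm of II and 3.67 on the right arm of V.

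**Figure D4:**
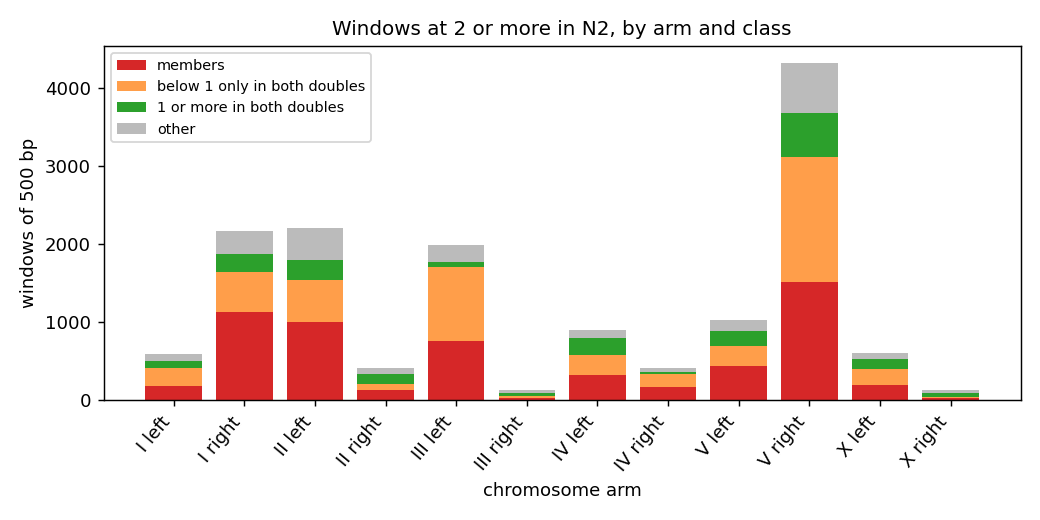
Number of evenly covered windows at 2 or more in N2 on each chromosome arm, divided into members, windows below 1 only in both double mutants, windows at 1 or more in both double mutants and in nrde-3, and all others. The right arm of V has the most members (1516), and members make up the largest share on the right arm of I (52.5%).

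Members were also unevenly spread within arms. In bins of 200 kb, 222 of 504 bins held a member, and the 15 bins with the most held 32.03% of them. The top bin lay on II from 1600001 to 1800000, with 215 members among 336 strong windows (64.0%), followed by II from 1800001 to 2000000 with 158 among 288 (54.9%) and I from 12400001 to 12600000 with 154 among 237 (65.0%). On III from 800001 to 1000000, 133 of 180 strong windows were members (73.9%), and on II from 800001 to 1000000, 109 of 137 (79.6%). In the bin on II from 1800001, the members had a median level of 3.27 in N2 and 0.43 in lin-61, and only 5 windows were lost in the double mutants alone.

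Members joined across at most 1 other window gave 698 domains of at least 3 members, which held 4164 of them (70.2%). The median domain was 2500 bp long and 82 domains had 10 members or more. A further 944 members stood alone and 412 runs had 2. Members in runs of at least 10 had a higher median level in N2 than those that stood alone, 2.83 against 2.32, and a lower one in lin-61, 0.60 against 0.80. Of the single members 28.5% lay between 0.9 and 1 in lin-61, against 10.1% of those in runs of at least 10. In met-2 nrde-3 the medians were 0.09 and 0.07.

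The domain with the most members lay on II from 1864006 to 1892505, with 54 members in 28500 bp of the left arm. Its mean level was 2.90 and 3.20 in N2 replicates 2 and 3. It was 2.02, 2.88 and 1.44 in nrde-3, whose highest preparation came close to the lower one of N2 without overlapping it. The lin-61 preparations stood at 0.44, 0.38 and 0.24, those of met-2 nrde-3 at 0.12, 0.07 and 0.18, and those of lin-61 met-2 at 0.48, 0.44 and 0.54. All 9 preparations of these 3 genotypes were thus below 0.6, and lin-61 met-2 was not below lin-61. By edgeR the median adjusted p over its windows was 0.668 for lin-61 met-2 against lin-61 and 0.556 for met-2 nrde-3 against lin-61. The 60 windows around it, some of them members of neighbouring domains, had a median of 3.46 in N2 and 0.54 in lin-61.

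**Figure D5:**
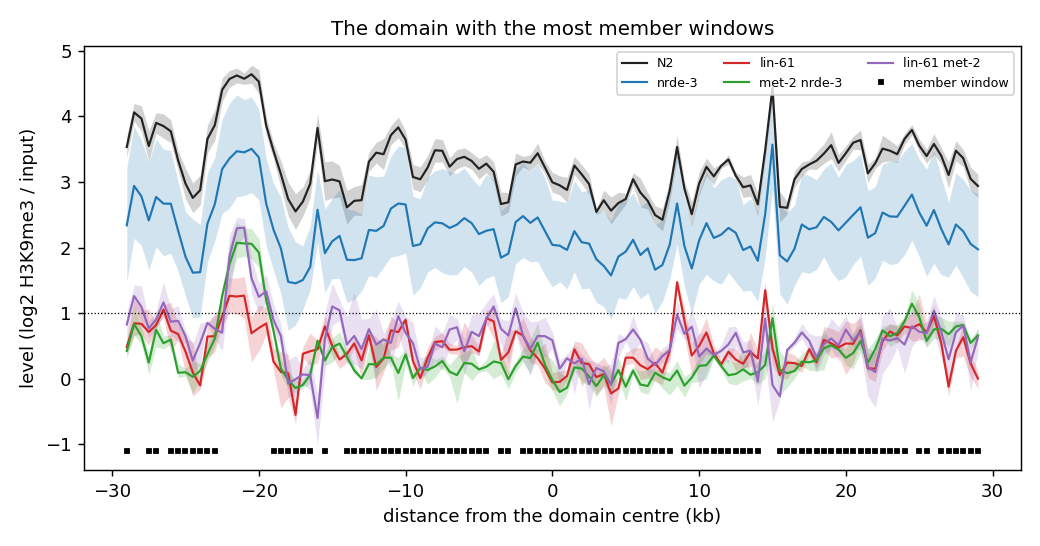
Levels along the domain with the most member windows, on the left arm of II, by distance from its centre; lines are means over preparations and shading runs from the lowest to the highest preparation of a genotype (n = 2 for N2, 3 for the others). Black squares mark member windows. N2 averages 3.05 over the members and nrde-3 2.12, while lin-61 averages 0.35, met-2 nrde-3 0.12 and the lin-61 double mutant 0.49.

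The 10 domains with the most members lay on I, II and V only, 4 on I, 4 on II and 2 on V, all in arms. Their mean level ranged from 2.5 to 3.80 in N2, from 1.68 to 2.60 in nrde-3, from 0.35 to 0.66 in lin-61, and from -0.10 to 0.51 and 0.19 to 0.56 in the double mutants with nrde-3 and with lin-61. Next to the longest, at II 1893506 to 1907505, met-2 nrde-3 kept 0.46, 0.49 and 0.59 and lin-61 0.48, 0.52 and 0.29, which overlap. At V 18272398 to 18286397, with 27 members, the lin-61 preparations stood at 0.64, 0.82 and 0.40 and those of met-2 nrde-3 at -0.08, -0.08 and -0.13. There met-2 nrde-3 lay below lin-61 in every preparation, with a mean log2 change of -0.74 and a median adjusted p of 0.0368 by edgeR. The same order of preparations held in all of these 10 domains except the one at II 1893506 to 1907505. In the other domains of the 10 the median adjusted p by edgeR was 0.116 to 0.782. This contrast crosses the library series.

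The strongest N2 domains that met the rule reached a level of 4.45. At V 17527401 to 17529400, with 4 members, N2 stood at 4.29 and 4.62 and nrde-3 at 2.98, 3.97 and 2.43. The lin-61 preparations were at 0.80, 0.78 and 0.52, those of met-2 nrde-3 at 0.49, 0.50 and 0.68, and those of lin-61 met-2 at 0.81, 0.68 and 0.75. The other chromosomes' highest domains had N2 means of 3.38 on IV to 4.38 on II, and on II met-2 nrde-3 kept 0.91, close to the limit.

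Centres held 21 members and 2 domains. At IV 8568808 to 8570807, with 4 members, N2 stood at 2.63 and 2.79, lin-61 at 0.82, 0.77 and 0.58, and met-2 nrde-3 at -0.26, -0.13 and -0.18, with a median adjusted p of 0.00824 between the last 2 (edgeR). At V 8695939 to 8697438, with 3 members, lin-61 stood at 1.04, 0.81 and 0.61 and lin-61 met-2 at -0.31, -0.08 and -0.17, and all 3 members were called lower in the double mutant, with a median adjusted p of 0.0059.

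Domains of at least 5 members differed in which mutant kept more. The largest excess of lin-61 met-2 over met-2 nrde-3 was at II 2374004 to 2376503, with means of 0.84 and 0.20, and the largest deficit at X 17448163 to 17450662, with 0.23 against 0.84. No test of a whole domain was run. The median adjusted p over the windows was 0.0908 and 0.192 by edgeR, with 1 member called higher in the first and 0 called in the second. The largest deficit of lin-61 met-2 against lin-61 was at I 2342491 to 2344990, where lin-61 stood at 0.87, 0.93 and 0.52 and lin-61 met-2 at -0.22, -0.17 and -0.23. The groups did not overlap there, and the median adjusted p was 0.00505 by edgeR, with 4 of 5 members called. The domain was picked for this difference in the same libraries, so these values are a description and not a test. Over all 698 domains the median adjusted p was under 0.05 in 35 for lin-61 met-2 below lin-61, in 204 for met-2 nrde-3 below lin-61, and in none between the double mutants. These are median values over the windows of a domain, and no share over other domains was computed to set beside them. Among domains of at least 5 members, the lowest in nrde-3 had means of 1.13 and 1.14 there and lay on III and on the left arm of I, and the highest had 3.05 on I and 3.01 on V.

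Members often lay beside other windows with strong N2 signal. Of the windows next to a member, 56.4% were members, 16.9% belonged to the class lost only in the double mutants, 14.03% had a level of 1 to 2 in N2, 0.523% were below 1 in N2 and 6.08% were not evenly covered. Of 1183 runs of at least 3 strong N2 windows, joined across at most 1 other window and holding 5388 of the 5932 members, 103 consisted of members only, 357 were members in at least 50% but not all, 456 held fewer, and 267 held none. Just outside domains of at least 5 members, the first other windows had a median of 2.99 in N2, 2.00 in nrde-3 and 1.03 in lin-61, while met-2 nrde-3 stood at 0.11 and lin-61 met-2 at 0.45. The edge of a member domain was therefore mostly not an edge of the N2 domain.

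Levels were also read in preparations that had no part in the choice of members. For each preparation, members were chosen again without it and its own level was read there. In met-2 nrde-3, 97.0% to 100% of the windows so chosen were below 1 in the omitted preparation, and in lin-61 met-2 92.2% to 98.7%, where 92.0% to 96.0% of all evenly covered windows were. In lin-61 the share was 77.8%, 71.55% and 98.4% for replicates 1 to 3, against 92.9% to 95.5% of all windows. In nrde-3, 91.8%, 100% and 52.3% were at 1 or more, against 5.60% to 13.8% of all windows, and in N2 79.8% and 99.8% were at 2 or more in replicates 2 and 3, against 7.43% and 9.001%. Most of all evenly covered windows lack the mark even in N2, where their median level was -0.03, so a level below 1 is common among them. Of the 14552 windows at 2 or more in N2 and 1 or more in nrde-3, 47.1% were below 1 in lin-61. In met-2 nrde-3 82.3% of them were, and in lin-61 met-2 77.4%, by the mean over preparations. Taking every preparation by itself, 1816 members (30.6%) met the rule in all 14 H3K9me3 libraries used. The condition on nrde-3 was met in all 3 preparations by 54.5% of the members, that on lin-61 by 69.0%, that on N2 by 87.4%, that on lin-61 met-2 by 90.2% and that on met-2 nrde-3 by 97.7%.

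The rule used the input both as a filter and in the levels. The median of the mean input was at a level of -0.003 relative to the median window (10th to 90th percentile -0.156 to 0.125), against 0.05 over all evenly covered windows and -0.08 in the class lost only in the double mutants. Across windows, residual levels were repeatable to a degree. Between preparations of one genotype the levels over the members correlated at r = 0.647 to 0.705 in met-2 nrde-3, 0.596 to 0.673 in lin-61 and 0.449 to 0.587 in lin-61 met-2. All of these share the input, and windows are not independent replicates. The residual levels of both double mutants correlated at r = 0.477, and those of lin-61 and met-2 nrde-3 at 0.059.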

How the data were processed

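Per the labels, fragments from immunoprecipitated and input chromatin were read from both ends, and the build is ce10 per the submitters' processing notes. The authors deposited raw counts per window in 30 columns, 1 for each library, while the records list 2 runs per library; how these were joined is not given in the sources used here. The aligner, counter and treatment of duplicates and repeats are not given in the sources used here, so reads of repeats could be placed in more than 1 way. Counts come from amplified fragments, which are not independent molecules. The growth protocol speaks of 2 independent biological replicates, the extraction protocol of 3, so p-values measure the spread between these preparations, some of which may not be independent cultures.

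Levels used a pseudocount of 8 and the median of 200551 nuclear windows, and 28 mitochondrial windows were left out. edgeR 4.0.16 (R 4.3.3) was fitted on the 14 H3K9me3 libraries and 184123 evenly covered windows, with effective library sizes set to the column medians, 1 group per genotype and no covariate. Benjamini-Hochberg values over all windows under 0.05 were called. H3K9me3 over input used all 28 libraries with 1 input group. The script was tested on counts simulated for lin-61 met-2 against lin-61, with changes placed in windows that did not have low counts. It called 68 of 100 changes of 2 times and 100 of 100 changes of 4 times, with 14 false calls among the unchanged windows. Smaller changes were not simulated. Named domains were the 10 with the most members, the highest in N2 per chromosome, those in centres, and the extremes among domains of at least 5 members in the differences lin-61 met-2 minus met-2 nrde-3, lin-61 met-2 minus lin-61 and in nrde-3, 32 in all. Members, classes and rules were chosen with earlier results of these data known. Gene names and sequences were not assigned, since the annotation at hand is of another build. Alternatives covered scaling (TMM, DESeq2 size factors, totals), pseudocount, filters, thresholds, limma 3.58.1, DESeq2 1.42.0, a replicate block and the omission of each preparation.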

Additional observations from a re-analysis of the deposited data

Results flagged for a closer look

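The library labelled N2 input 1, which entered no comparison, carried a signal over the members. Its median level there was 1.81 (10th to 90th percentile 1.315 to 2.687), and 99.5% of the 5932 members were at 1 or more, against 10.6% of all evenly covered windows. The other 14 inputs had medians of -0.02 to 0.05 over the members. The library labelled N2 H3K9me3 1 had a median of 0.05 there and no member at 1 or more. In the library labelled N2 input 1, the class lost only in the double mutants stood at 2.56 and the class kept in both at 3.11, so the order of the classes was that of the N2 H3K9me3 libraries 2 and 3.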

How the results depend on the processing

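The number of members depended on the thresholds and the scaling. Against 5932 members, 698 domains and 70.2% of members in domains, scaling by library total gave 1450 members, 167 domains, 62.34% in domains, 99.93% in arms and 50.07% on V, with median levels of 2.354 in N2 and -0.266 and 0.401 in the double mutants (here and below met-2 nrde-3 first). A limit of 0.5 in place of 1 gave 1283 members, 120 domains, 35.78% in domains and 99.84% in arms, with medians of 0.327 in lin-61 and 0.014 and 0.104 in the double mutants. An nrde-3 floor of 1.5 gave 3582 members, 421 domains, 67.62% in domains and 36.63% on V, with medians of 2.953 in N2 and 0.116 and 0.387 in the double mutants. A floor of 2 gave 1539 members, 187 domains, 63.03% in domains, 100% in arms and 44.31% on V, with medians of 3.419 in N2, 2.33 in nrde-3 and 0.166 and 0.45 in the double mutants. Stretching each genotype's level to the SD of N2 gave 1418 members, 129 domains, 34.56% in domains and 30.61% on V, with medians of 2.366 in N2 and 0.026 and 0.195 in the double mutants; stretching to the 99th percentile of N2 gave 891 members, 65 domains, 26.6% in domains, 99.44% in arms and 31.76% on V, with medians of 2.328, 0.011 and 0.133. With all 30 libraries as labelled there were 0 members and 0 domains. Without the limit on even coverage 98.78% were in arms, 31.39% on V and 67.8% in domains, with 0.146 and 0.219 in the double mutants. A pseudocount of 32 gave 0.12 and 0.375 there. The share in domains was 68.24% with a stricter even-coverage limit, 71.52% with the inputs labelled with the own genotype, 58.31% for adjacent windows only, 80.02% when joined across 3 windows and 49.75% in the 338 domains of at least 5 members. With narrower arms, 97.3% were in arms. The cause of these changes was not tested.

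Calls for lin-61 met-2 against lin-61 (lower, higher) were 743 and 3; against met-2 nrde-3, 44 and 78; for met-2 nrde-3 against lin-61, 1947 and 16; and for nrde-3 against N2, 2358 lower. At an adjusted p under 0.01 the first were 260 and 0 (4.38% and 0%, against 4.06% and 5.16% of all windows). Between the double mutants they were 14 and 3 (0.236% and 0.0506%, against 4.54% and 1.05%). For met-2 nrde-3 against lin-61 they were 802 and 3 (13.5% and 0.0506%, against 9.65% and 11.9%). For nrde-3 against N2 231 were lower (3.89%, against 1.19%). With N2 H3K9me3 1 as labelled the calls, in the same order, were 9 and 0, 0 and 0, 18 and 1, and 0. Over all windows the shares were 2.15% and 4.62%, 3.15% and 0.881%, 6.92% and 11.1%, and 0%. With that library, 51 members were lower in lin-61 than in N2 (0.86%, against 0.291%) and 13 lower than in nrde-3 (0.219%, against 0.285%). Fits of the groups alone gave 1337 and 18, 75 and 429, and 4078 and 94. These were 22.5% and 0.303%, 1.26% and 7.23%, and 68.7% and 1.58% of the members. Over all windows the shares were 7.72% and 7.23%, 5.96% and 3.23%, and 21.9% and 23.6%. limma after division by the SD gave 2793 and 78, 191 and 1553, 4278 and 75, and 9. These were 47.1% and 1.31%, 3.22% and 26.2%, 72.1% and 1.26%, and 0.152% of the members. Over all windows the shares were 17.2% and 14.5%, 11% and 9.58%, 21.7% and 20.2%, and 0.115%. Without that division limma gave 4564 lower in nrde-3 (76.9%, against 11.1%). DESeq2 gave 4079 lower in nrde-3 (68.8%, against 20.6% of the windows with an adjusted p). It gave 146 higher in lin-61 met-2 than in met-2 nrde-3 (2.46%, against 5.84%), and its size factors 140 (2.36%, against 5.46%). TMM gave 10 higher in met-2 nrde-3 than in lin-61 (0.169%, against 16.2%). With the own input as reference, 10 and 22 differed between the double mutants (0.169% and 0.371%, against 6.05% and 1.8%). In that setting 6 were higher in met-2 nrde-3 than in lin-61 (0.101%, against 15.1%). Above the input, the own input gave 387 members in met-2 nrde-3, and 1502 for lin-61 met-2 (6.52% and 25.3%, against 14.8% and 21.6%). Below it were 1 for lin-61, 5 for met-2 nrde-3, and 44 for the lin-61 double mutant (0.0169%, 0.0843% and 0.742%, against 18.9%, 1.06% and 14.5%). At 0.01, 2, 1 and 75 were below (0.0337%, 0.0169% and 1.26%, against 18.8%, 1.34% and 15%), and TMM gave 9 in lin-61 (0.152%, against 29.1%).

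Leaving out each preparation gave 32.36 to 35.23% on V, 66.67 to 71.16% in domains, and medians of 2.543 to 2.772 in N2, 0.067 to 0.105 and 0.307 to 0.368 in the double mutants. Calls ranged from 316 to 1622 lower and 0 to 30 higher for lin-61 met-2 against lin-61 (5.40% to 11.6% and 6.72% to 11.8% of all windows). Against met-2 nrde-3 they ranged from 18 to 116 and 4 to 551 (4.88% to 9.41% and 1.54% to 5.81%). For met-2 nrde-3 against lin-61 they were 1001 to 3289 and 3 to 56 (11.1% to 18.5% and 14.1% to 22.4%). With a mutant preparation left out, 36 to 5925 were lower in nrde-3 (0.352% to 20.3%). Over the input, 2 to 6 were below in lin-61 (20.6% to 27.2% of all windows). In met-2 nrde-3, 2 to 14 were below and 432 to 792 above (2.09% to 6.88% and 14.8% to 19.2%). With a replicate block, calls were 688 and 2, 39 and 54, 1752 and 12, and 1641 lower in nrde-3. Over all windows the shares were 9.05% and 10.1%, 8.21% and 3.39%, 15.2% and 18.1%, and 6.01%. Deviations of same-numbered libraries from their group means correlated at -0.366 to 0.353, with 2 of 26 pairs over 0.1. The means are of 2 or 3 libraries and the pairs are not independent, so this cannot show whether same-numbered libraries were prepared together.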
